A study of Mus musculus with 2 samples.

Results

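The MAF, NRF2, BACH and antioxidant genes are a set of 10: 4 genes of MAF transcription factors (Maf, Maff, Mafg and Mafk), 3 genes of their CNC partners (Nfe2l2, which encodes NRF2, and the repressor genes Bach1 and Bach2), and 3 genes of antioxidant enzymes (Srxn1, Hmox1 and Nqo1). All FOS peaks whose nearest gene, or whose host gene in the authors' annotation, was 1 of the 10 were taken, which gave 10 of the 2374 peaks of the list. The peaks came from a ChIP-seq library made with a FOS antibody from granulosa cells, the somatic cells around the oocyte, which were recovered by puncturing follicles of wild-type female mice 25 days old. Follicle growth had been driven by priming with the gonadotropin PMSG, and the ovaries were taken 3 h after hCG, which stands in for the luteinizing hormone surge that sets off ovulation. The second library of the series has the same genotype, treatment and time, carries no antibody in its label, and was not analysed here. There are no replicates, no cells without hCG and no read counts. No value therefore carries an error between animals, the depth is unknown, and nothing below was tested: the values describe this peak list. A peak list holds no expression values, so the granulosa label could not be checked against marker levels.

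MAF proteins are basic leucine zipper factors. The small ones, MAFF, MAFG and MAFK, have no activation domain of their own and act on DNA mostly in pairs with a CNC factor: with NRF2 they activate antioxidant genes, and with BACH1 or BACH2 they repress many of the same genes. NRF2 is kept low by KEAP1 and a cullin ubiquitin ligase until oxidants block KEAP1, and BACH1 leaves DNA when it binds haem. The sequences that these pairs read contain, or differ little from, the AP-1 motif that FOS reads in pairs with JUN proteins, so both kinds of factor can meet on the same site.

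FOS peaks were recorded at 7 of the 10 genes (Maf, Maff, Mafk, Nfe2l2, Bach1, Bach2 and Srxn1), where 8.69% of all 21887 protein-coding genes had a peak by the same rule. The gene set was put together with the peaks already known, so this count is a description. The highest score was at the promoter of Srxn1. Mafg, Hmox1 and Nqo1 had no peak. Of the 10 peaks, 2 were in the promoter class, 5 in introns and 3 between genes. Over all peaks, introns held 44.7% and the stretches between genes 35.4%. The promoter class held 15.2% of all peaks (exact Clopper-Pearson 95% interval 13.7 to 16.7, counting error only). Promoter peaks were at 2 of the 10 genes, Srxn1 and Maff, and at 1.66% of protein-coding genes. A peak in the upper 25% of scores, which means 99 or more, was at 5 of the 10 genes and at 2.55% of protein-coding genes. Of these 5 genes, Bach1 counts only through a peak that scored exactly 99.

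The promoter sequences below are those of 2 members whose promoter lay under a FOS peak (Srxn1 and Maff) and 2 members with no peak (Mafg and Nqo1). A further promoter under a peak belongs to Prdx1, a peroxiredoxin gene of the other pathway genes described below. Aox1, another of those genes with a promoter peak, is not printed. Each sequence is the stretch of 250 bases just before a start site of the gene, 5′ to 3′ on the gene's strand. All are from RefSeq on GRCm38.p6, the assembly that mm10 names. Capitals mark matches to the motifs searched, which are given after the sequences.
Srxn1, chr2:152105274-152105523, plus strand: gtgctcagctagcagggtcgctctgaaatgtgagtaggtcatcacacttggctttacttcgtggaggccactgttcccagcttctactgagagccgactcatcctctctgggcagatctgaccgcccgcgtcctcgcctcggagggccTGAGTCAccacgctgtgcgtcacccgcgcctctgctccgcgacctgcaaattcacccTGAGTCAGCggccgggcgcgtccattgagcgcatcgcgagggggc
Maff, chr15:79347270-79347519, plus strand: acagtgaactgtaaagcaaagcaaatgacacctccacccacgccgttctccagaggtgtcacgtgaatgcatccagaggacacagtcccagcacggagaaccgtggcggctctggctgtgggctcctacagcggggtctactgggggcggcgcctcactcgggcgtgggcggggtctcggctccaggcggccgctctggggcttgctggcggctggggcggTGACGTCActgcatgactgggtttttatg
Prdx1, chr4:116685349-116685598, plus strand: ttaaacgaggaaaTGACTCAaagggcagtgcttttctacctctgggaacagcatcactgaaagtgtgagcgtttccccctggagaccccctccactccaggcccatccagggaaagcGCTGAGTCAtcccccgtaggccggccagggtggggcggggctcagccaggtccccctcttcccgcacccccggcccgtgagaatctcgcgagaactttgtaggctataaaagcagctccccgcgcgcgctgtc
Mafg, chr11:120633548-120633797, minus strand: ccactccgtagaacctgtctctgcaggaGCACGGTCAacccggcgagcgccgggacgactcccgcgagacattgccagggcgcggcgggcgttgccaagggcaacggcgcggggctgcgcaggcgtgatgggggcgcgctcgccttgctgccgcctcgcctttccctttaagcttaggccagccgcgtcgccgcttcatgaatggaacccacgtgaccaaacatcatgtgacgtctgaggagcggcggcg
Nqo1, chr8:107403206-107403455, minus strand: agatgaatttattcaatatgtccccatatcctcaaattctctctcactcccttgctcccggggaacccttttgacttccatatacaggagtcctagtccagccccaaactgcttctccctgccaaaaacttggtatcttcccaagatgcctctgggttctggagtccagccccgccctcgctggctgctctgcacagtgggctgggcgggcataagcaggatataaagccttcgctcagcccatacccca

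The motifs were TGANTCA (the AP-1 motif), TGACGTCA (the cAMP response element, CRE, which FOS and ATF proteins also read), TGACNNNGC (the core of the antioxidant response element) and GCTGANTCA (an AP-1 motif with the GC flank that MAF proteins read), each on both strands. GCTGANTCA always contains TGANTCA, and a single site can match it and TGACNNNGC together. The windows searched were 300 bases long, these 250 and the next 50. RefSeq windows were at hand for 8 of the 10 members, 10 windows in all, since Maff has 3. Maf and Hmox1 were not searched.

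The Srxn1 promoter held 2 AP-1 motifs, and it was the single member of the 8 with any. Of all 32851 promoter windows 7.81% held at least 1, and 0.460% held 2 or more. The middles of the 2 Srxn1 motifs lay 99 and 42 bp before the start site, which put them 21 and 78 bp from the centre of the FOS peak. The second carries the GC flank, and GCTGANTCA was found in 1.19% of all windows. The Maff window under the peak had no AP-1 motif and held 1 CRE, found in 1.79% of all windows, with its middle 25 bp before the start site and 75 bp from the peak centre. The antioxidant core was in 5 of the 10 member windows and in 12.4% of all windows. It was at Nfe2l2 (236 bp before the start site), Mafg (218 bp before), Mafk (9 bp before), Srxn1 (32 bp after) and at the upstream start site of Maff (108 bp before), and of these 5 windows only that of Srxn1 lay under a peak. The windows of Nqo1, Bach1 and Bach2 held no match to any of the 4 motifs, which says only that these letters are not in these windows. For Bach2 and Mafg the window lay at a start site inside the RefSeq span of the gene. The upstream ends of those spans were not searched.

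The same motifs were counted in the promoter windows of all genes, split by whether a FOS peak centre lay inside. The AP-1 motif was in 87 of the 221 windows with a peak centre (39.4%) and in 2478 of the 32630 windows without one (7.59%). The CRE was in 9.95% of windows with a peak centre and in 1.73% of those without. The antioxidant core was in 22.2% of windows with a peak centre and in 12.3% of those without. GCTGANTCA was in 4.98% of windows with a peak centre and in 1.16% of those without. Some genes have several overlapping windows, and these shares were not tested.

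**Figure D1:**
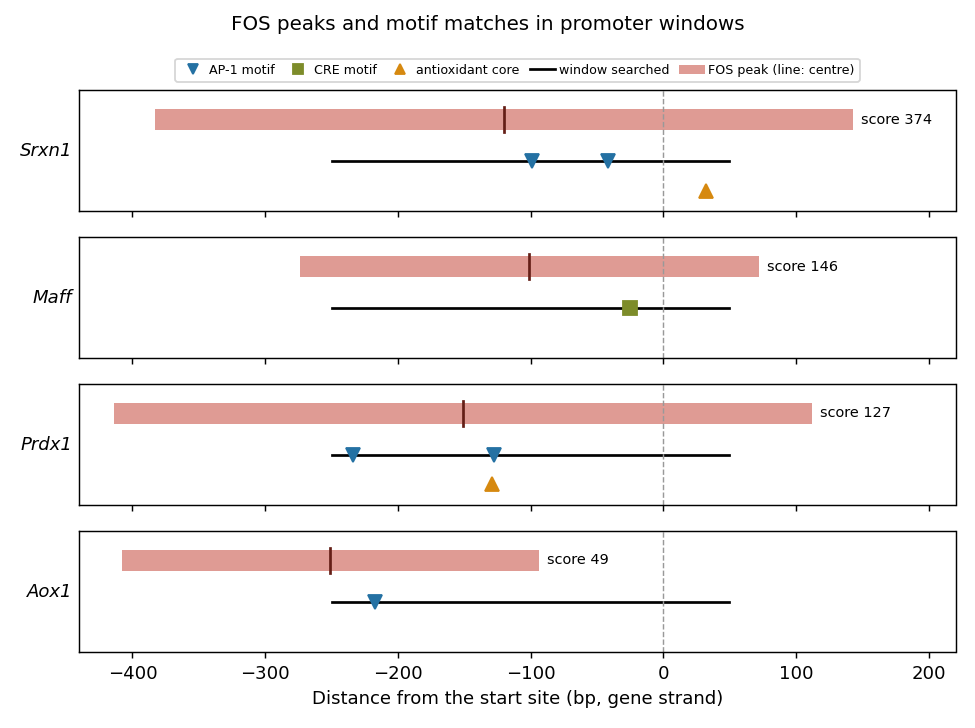
FOS peaks and motif matches at the 2 members with a promoter peak (Srxn1, Maff) and the 2 other pathway genes with one (Prdx1, Aox1). The x axis is the distance from the start site in bp on the gene's strand, bars are the peaks with a line at the centre, black lines are the windows searched and symbols are motif middles. An AP-1 motif lies 21 bp from the peak centre at Srxn1, 23 bp at Prdx1 and 34 bp at Aox1, and Maff has a CRE 75 bp from it.

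Among the antioxidant enzyme genes of the set, only Srxn1 had a peak. Srxn1 encodes sulfiredoxin, which repairs peroxiredoxins that have been over-oxidised by peroxide. Its peak at chr2:152105141-152105667 scored 374, the rank of 13 among the 2374 peaks, above 99.5% of them. The score is the authors' own whole number for each peak, it ran from 13 to 2234 over the list with a median of 67, and it ranks peaks within this list only. The peak centre lay 120 bp upstream of the transcription start site (TSS), and at 527 bp the peak was the widest of the 10, against a median of 342 bp over all peaks. The next peak on the chromosome was 227 kb away. The peaks of Maff, Mafk and Maf lay farther from their next peak (239, 582 and 683 kb), and those of Nfe2l2, Bach1 and Bach2 lay nearer.

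Hmox1 and Nqo1, both textbook NRF2 targets, had no peak within 50 kb of the gene. Only 18.2% of all protein-coding genes had a peak within that distance, so this does not set the 2 genes apart. Hmox1 encodes haem oxygenase 1, which breaks down haem. The peak nearest to it lay 394 kb from the gene, at chr8:75494441-75494742 in an intron of 1700007B14Rik, with a score of 81. Nqo1 encodes a quinone reductase. The peak nearest to it lay 133 kb away at chr8:107255017-107255553, 879 bp upstream of the TSS of Mir5098, and scored 184, above 94.7% of all peaks. Without read counts, a gene with no peak means that none passed the authors' threshold in this library, not that FOS was absent.

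Of the small MAF genes, Mafk and Maff had 1 peak each and Mafg had none. The Mafk peak at chr5:139796900-139797264 lay in intron 1 of 2, 5.55 kb downstream of the TSS, and scored 195, above 95.8% of all peaks. The Maff peak at chr15:79347246-79347592 was a promoter peak with its centre 101 bp upstream of a TSS and scored 146, above 88.9%. It covered the whole window of the middle one of the 3 RefSeq start sites of Maff, and did not reach the other windows. Neither gene had a further peak within 100 kb: the next one was 582 kb from the Mafk peak and 239 kb from the Maff peak. The peak nearest to Mafg was 345 kb away in intron 2 of 8 of Csnk1d and scored 22, above 1.60% of all peaks.

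Maf, the gene of the large MAF protein c-MAF, which has an activation domain, had 2 distant peaks. One, at chr8:115764555-115764827, was intergenic, lay 57.8 kb upstream of the TSS and scored 65. The other, at chr8:115081517-115081877, lay 625 kb downstream of the TSS in intron 8 of 8 of Wwox, an oxidoreductase gene, and scored 84. The 2 peaks were 683 kb apart, with no other peak within 100 kb of either, and neither scored in the upper 25% of the list. The Wwox peak counts for Maf only because the TSS of Maf is the nearest.

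**Figure D2:**
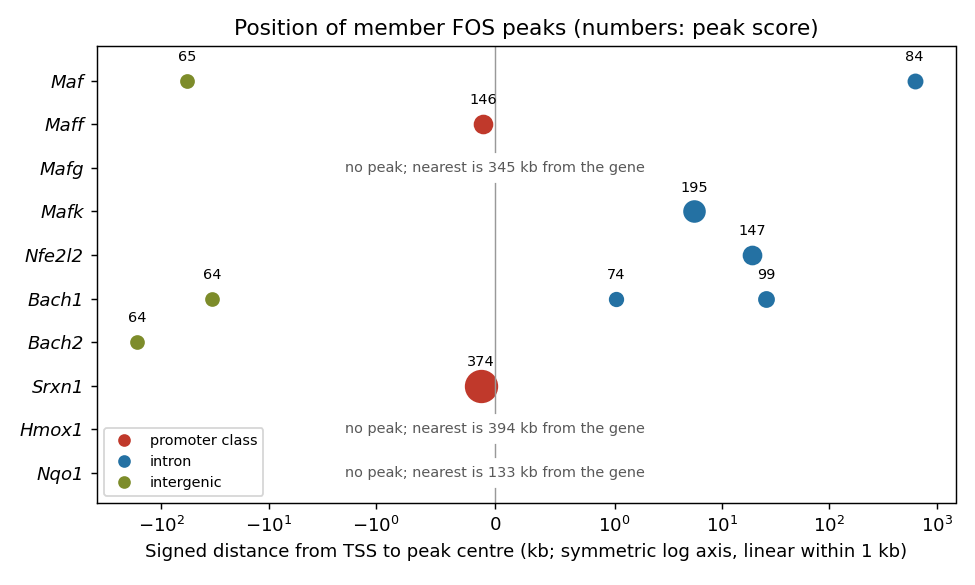
Position of each FOS peak of the 10 genes relative to the TSS of the gene. The x axis is the signed distance in kb on a symmetric log scale (linear within 1 kb), each point is a peak, its size and number give the authors' score, and its colour the genomic class. Promoter peaks are at Srxn1 and Maff, the Mafk, Nfe2l2 and Bach1 introns hold 4 peaks, and Mafg, Hmox1 and Nqo1 have none.

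Nfe2l2, the gene of the activator NRF2, had 1 peak, inside the gene and away from its promoter. It lay at chr2:75685409-75685838 in intron 1 of 4, 19.0 kb downstream of the TSS, was 430 bp wide and scored 147, above 89.0% of all peaks. Its score and that of Maff differed by 1. A second peak near the gene, intergenic and 32.1 kb outside its span, was assigned to Hnrnpa3 and scored 62.

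Bach1, the gene of the haem-sensitive repressor, had the most peaks of the set, with 3, and 0.397% of protein-coding genes had 3 or more. The highest, at chr16:87724753-87725154 in intron 4 of 4, lay 26.0 kb downstream of the TSS and scored 99. The peak at chr16:87699830-87700142 in intron 1 of 4 lay 1.03 kb downstream of the TSS and scored 74. The third, at chr16:87665301-87665655, was intergenic, lay 33.5 kb upstream and scored 64. The first of these scored above 74.0% of all peaks and the third above 45.4%, so the peaks of Bach1 were more numerous and lower than those of Srxn1, Mafk, Nfe2l2 and Maff. None of the 3 reached the RefSeq promoter window of Bach1.

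Bach2, a repressor known mostly from lymphocytes, had 1 peak, at chr4:32250662-32251051, with a score of 64. The authors' annotation put it between genes, 167 kb upstream of the TSS. In RefSeq on GRCm38.p6 the Bach2 gene runs over chr4:32238413-32586109, so by that annotation the same peak lies inside the gene. The class of this peak therefore depends on the gene annotation used.

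Over the set, scores ran from 64 to 374 with a median of 91.5, and over all peaks the median was 67. Of the 10 peaks 7 scored at or above the list median and 5 in the upper 25%. The 3 below the median were the intergenic ones, at Maf, Bach1 and Bach2, by the authors' classes; the Bach2 peak lies inside the gene by RefSeq. Equal numbers lay upstream and downstream of the TSS, 5 each. The median distance to the TSS was 22.5 kb for the 10 peaks and 18.2 kb for all peaks, and the median width was 363 bp and 342 bp.

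**Figure D3:**
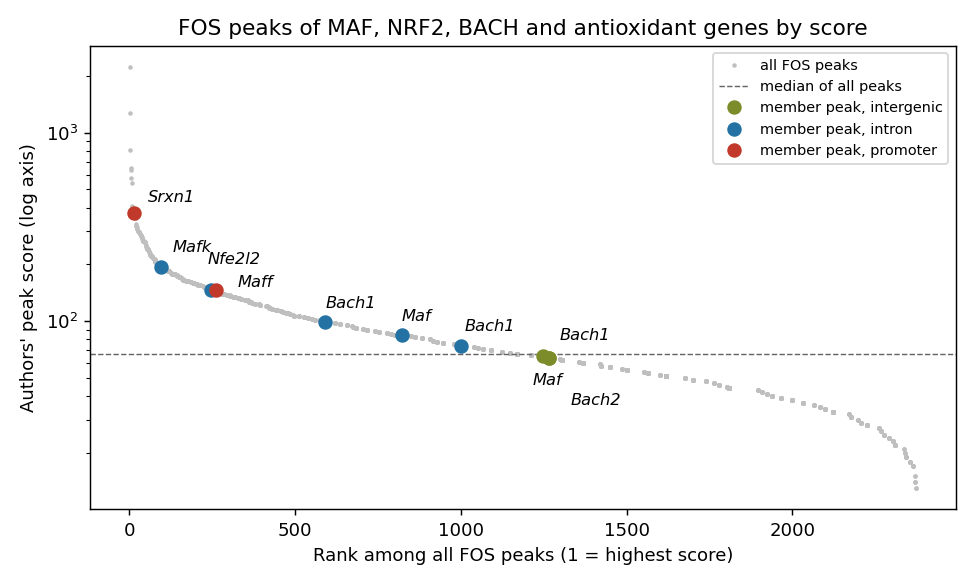
Authors' peak score (log axis) against rank for all 2374 FOS peaks (grey) and the 10 peaks of the MAF, NRF2, BACH and antioxidant genes (coloured by class). Srxn1 at 374 leads the set, the introns and the other promoter follow, and the 3 intergenic peaks at 64 to 65 lie just under the dashed median of 67.

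Among other genes of the same pathways, most had no peak. In 8 lists with 78 further genes, 12 had a peak (15.4%) and 66 had none, against 8.69% of all protein-coding genes. The 14 peaks scored 19 to 174 with a median of 61.5, below the 67 of all peaks. The lists and the members were both chosen with results of these peaks known, and the difference was not tested.

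The 3 peaks of these lists in the upper 25% of scores were at Glrx, Msra and Prdx1. Glrx, the gene of glutaredoxin 1 in the glutathione list, had a peak that scored 174 between genes, 42.0 kb upstream of its TSS. Msra, which encodes a methionine sulfoxide reductase, had intronic peaks of score 168 and 60, at 87.5 kb and 9.69 kb downstream. Prdx1, whose product is a peroxiredoxin of the kind that sulfiredoxin repairs, had a promoter peak at chr4:116685185-116685711 that scored 127, above 84.5% of all peaks. The Prdx1 peak had its centre 151 bp upstream of the TSS and, like that of Srxn1, was 527 bp wide. As at Srxn1, its promoter held 2 AP-1 motifs. They lay 234 and 128 bp before the start site and 83 and 23 bp from the peak centre. The motif nearer the centre also matched GCTGANTCA and the antioxidant core. An AP-1 motif was in 39.4% of all promoter windows with a peak centre, and the likeness to Srxn1 was not tested. In all, 2 of the 13 thioredoxin and peroxiredoxin genes had a peak, where 8.69% of all protein-coding genes had one. The other peroxiredoxin genes, Prdx2, Prdx3, Prdx4, Prdx5 and Prdx6, had none. At that background share most genes have no peak, so this does not set Prdx1 apart from them.

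Of the 19 glutathione genes, 4 had a peak, where 8.69% of all protein-coding genes had one. Besides Glrx these were Slc7a11, the cystine importer that feeds glutathione synthesis, with scores of 63 and 48, Gpx1, a glutathione peroxidase, with 58 at 652 bp downstream of its TSS, and Gsr, glutathione reductase, with 49. Of the 10 genes that govern NRF2 turnover, 3 had a peak, against the same 8.69%. Gsk3b, the gene of a kinase that marks NRF2 for degradation, held a peak of score 81 in intron 1 of 10. This peak was assigned to BC031361. Sqstm1, the gene of the KEAP1-binding protein p62, had a peak of score 33, above only 8.64% of all peaks. The peak of Fbxw11, the gene of an F-box protein, scored 19, above only 0.927%. Keap1 itself was in that list and had no peak.

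Of the 11 genes of quinone and drug metabolism and export, 3 had a peak. The exporter gene Abcc3 held a peak of score 69 assigned to Ankrd40, the exporter gene Abcc4 had one of score 66 lying 3.69 kb upstream, and Aox1, an aldehyde oxidase gene, had a promoter peak of score 49 with an AP-1 motif 34 bp from its centre. No peak was recorded at the 5 other MAF and CNC genes in the lists (Nfe2, Nfe2l1, Nfe2l3, Mafa and Nrl), the 4 superoxide dismutase and catalase genes, the 10 haem and iron genes or the 6 NADPH supply genes. With lists this short, a background share of 8.69% gives few genes with a peak, so these counts of 0 do not set the lists apart.

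**Figure D4:**
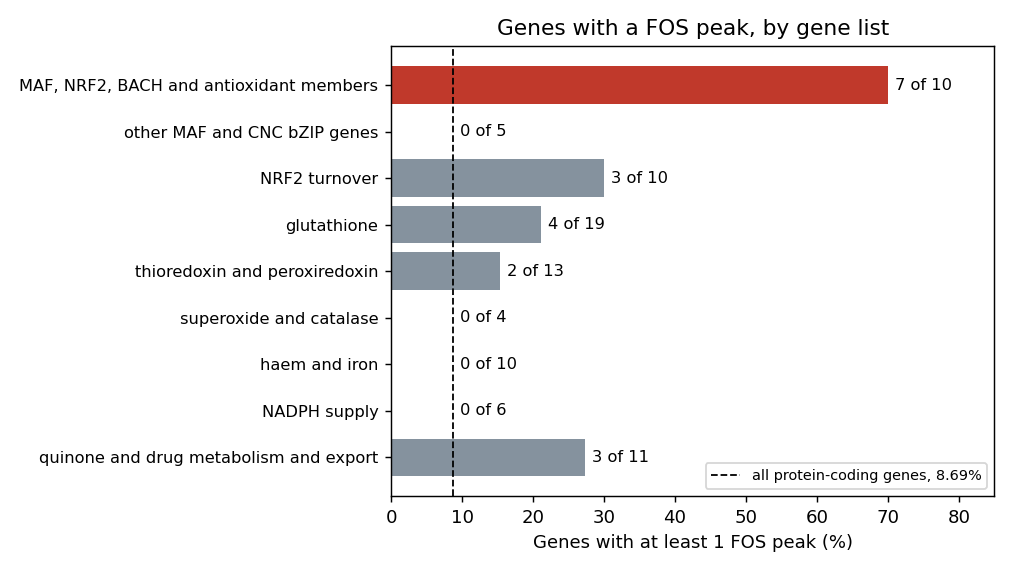
Share of genes with at least 1 FOS peak, in percent, for the 10 members (red) and 8 lists of other pathway genes (grey), with the count beside each bar. The dashed line is the share of all protein-coding genes, 8.69%; the members stand at 7 of 10, and 4 of the 8 lists have no gene with a peak.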

How the data were processed

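The deposited file is 1 table of narrow peaks from the FOS library. Per the file headers, the authors annotated a narrowPeak file with annotatePeaks, a HOMER program, from a gene GTF. The tools named by the submitters' processing notes are MACS2 2.2.7.1, BWA, deepTools 3.5.1 and Trim Galore, with the build mm10. The sources used here do not give the peak threshold or any control library. The peak score is the authors' deposited score, of unstated scale. The distance is the authors' signed distance from peak centre to TSS in bp, and coordinates are as deposited.

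Nearest genes were matched to RefSeq on GRCm38.p6 by accession, then symbol, then older symbol (2374 of 2374 peaks matched), and host genes by symbol (1531 of 1534). A gene had a peak if it was the nearest or the host gene. The background was 21887 protein-coding genes. Motifs were searched as exact strings, and the search was tested on simulated data. Every peak of each member and every pathway gene with a peak is named. One gene of the planned lists is not reported here. Members and lists were chosen with earlier results of these data known. The alternatives covered score, distance, gene assignment, promoter definition and motif. Genomic sequence was limited to the RefSeq promoter windows and no protein sequence was used here, so sequences of peaks outside those windows and the planned identity of the small MAF proteins are not reported. Python 3.11.15, numpy 2.4.6, scipy 1.17.1, pandas 2.3.3 and matplotlib 3.10.9 were used.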

Additional observations from a re-analysis of the deposited data

How the results depend on the processing

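The count of members with a FOS peak stayed between 5 and 7 of 10 under all alternatives: 6 when scores under the median were left out (4.75% of protein-coding genes), 5 in the upper 25% of scores (2.55%), 7 with nearest genes only (7.58%), 6 with any peak within 50 kb of the gene span (18.2%) and 6 within 100 kb of the TSS (7.89%). In the upper 25% of scores 5 of the 10 member peaks were left and 3 of the pathway genes. Without scores under the median, 5 of the 12 pathway genes were left and the median score of member peaks was 146. With any peak within 50 kb, 23 pathway genes had one. Within 100 kb of the TSS the median score of member peaks was 122.5. These shifts follow from which peaks each rule keeps. The promoter count was 2 within 1 kb of the TSS and 3 within 5 kb, and TGACTCA alone left Srxn1 as the 1 member with an AP-1 motif. No paired analysis was possible because there is 1 library with a peak list, and for the same reason no replicate could be left out. The depth is unknown, so a gene without a peak cannot be told apart from one below the authors' threshold.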

Other observations

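The intergenic peaks next to Bach2 included 2 with higher scores than its own that were assigned to Map3k7, the gene of the kinase TAK1. The peak at chr4:32179738-32180231 scored 166, above 93.0% of all peaks, and lay 58.2 kb from the RefSeq span of Bach2 and 216 kb downstream of the Map3k7 TSS. The peak at chr4:32074476-32074801 scored 98, 164 kb from Bach2 and 111 kb from the Map3k7 TSS. With the TSS of the longer RefSeq annotation of Bach2, the first of these would lie nearer to Bach2 than to Map3k7, and the files do not tell which gene, if any, it acts on.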
